A study of Brassica oleracea with 15 samples.

Results

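The shaded and the lit flank of the hypocotyl, the stem below the cotyledons, were compared after blue light from one side in Brassica oleracea. The comparison used the arrays titled as shaded or lit flank at 2 h, 3 of each, which made 6 of the 15 arrays of the study. The seedlings were wild type, grown in darkness and 3 days old, and the blue light was unidirectional and lasted 2 h. The other 9 arrays held 3 bottom and 3 top flank pools taken after gravity stimulation and 3 controls from mock-stimulated seedlings that were neither lit nor turned. Each array measured 1 pool of about 100 seedlings, whose hypocotyls had been split lengthwise so that the flanks came apart from the vascular core. The titles were used to assign the arrays, because the protocol text does not always match them. For the 3 lit samples it speaks of shaded flanks as the tissue collected, for the 3 shaded samples it names both flanks, and for 2 of the 3 bottom samples it names top and shaded flanks, so the flank labels rest on the titles alone.

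A hypocotyl lit from one side bends towards the light because the cells of its shaded flank elongate more than those of its lit flank. In Arabidopsis the blue light is sensed by phototropins, and auxin then gathers on the shaded side. There it frees auxin response factors such as ARF7 from Aux/IAA repressors. Early auxin targets include the GH3 enzymes, which conjugate auxin to amino acids, the SAUR and Aux/IAA genes, and genes of wall-loosening proteins, the expansins and xyloglucan endotransglucosylase/hydrolases (XTH). The comparison asks which of these transcripts, or others, differed between the flanks.

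The arrays were ATH1 arrays, designed for Arabidopsis, so the signal of a Brassica gene depends also on how well its transcript matches the probes, and no gene's signal was compared with that of another. Genes are called by the Arabidopsis symbol or locus of their probe set. Of 22810 probe sets, 11371 had a mean log2 signal over all arrays at or above the median and were tested, and 6284 of these carried 1 gene symbol. All arrays had a trimmed mean signal of 500, which is the authors' scaling, and precision is limited by having 3 arrays in a group. No vascular, epidermal or root marker gene of the lists used here (14, 15 and 7 genes) matched a probe set with a single symbol, so the labelled tissue could not be checked by its markers. In such pools, fewer cells of a type and less RNA per cell cannot be told apart.

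The largest differences among the 6 arrays did not run along the flanks. Correlations across the tested probe sets were 0.825 to 0.854 among the shaded arrays, 0.824 to 0.856 among the lit arrays, and 0.811 to 0.863 between a shaded and a lit array (9 pairs). Principal component 1, which held 25.5% of the variance, set shaded replicate 1 (30.4) and lit replicate 1 (30.8) apart from the other 4 arrays (-24.3 to -7.3). Of the first 3 components, only component 3 (19.2%) placed all shaded arrays, at 0.0095 to 37.3, above all lit arrays, at -18.7 to -10.2. Shaded replicate 3 stood at 37.3 there, and shaded replicates 1 and 2 at 0.0095 and 8.9. Later components were not looked at. Without both replicate 1 arrays, the count of probe sets past the adjusted threshold given next was also 0.

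**Figure D1:**
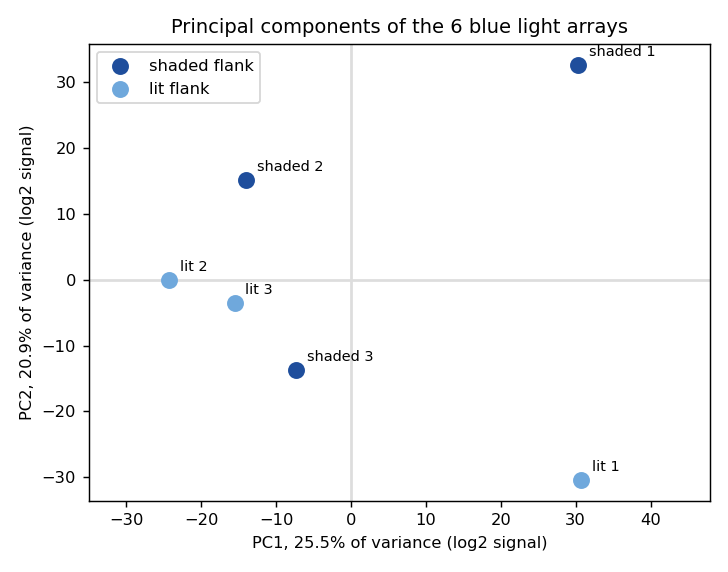
First (horizontal) and second (vertical) principal component of the log2 signals of the 6 blue light arrays, in units of summed log2 signal, 1 point per array, dark for shaded and pale for lit. The replicate 1 arrays of both flanks lie to the right, at 30.4 and 30.8, and the other 4 arrays to the left.

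No probe set differed between the shaded and the lit flank past a Benjamini-Hochberg adjusted p of 0.05 in limma (0 of 11371, 0%), and the smallest adjusted p was 0.272. With no adjustment, p was under 0.05 for 598 probe sets, 5.26% of those tested, of which 324 (2.85%) were higher and 274 (2.41%) lower in the shaded flank. An exact permutation test of 3 against 3 arrays cannot give a p below 0.1. The absolute log2 difference was 0.20 for the median probe set and 0.75 at the 95th percentile, and it was at least 1, a doubling, for 246 probe sets. The median 95% interval reached 0.61 log2 units to either side of the estimate, so differences of that order could not be told from 0 for a typical probe set. Every shaded array lay above every lit array for 628 probe sets (5.52%) and below for 563 (4.95%), together 10.5%. What follows therefore describes the sizes and the spread of the differences, gene by gene, and none of the genes named passed the adjusted threshold between the flanks.

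Among the auxin-linked genes that were measured, WES1 and HAT2 had higher signals in the shaded flank, and the other 4 differed little. WES1 is GH3.5, which in Arabidopsis conjugates auxin to amino acids. Its signals were 2507.1, 2721.3 and 1986.7 in the shaded flank, 1600.7, 1391.5 and 1195.2 in the lit flank, and 1534.2, 1467.8 and 1122.8 in the control. All shaded arrays lay above all lit and all control arrays, and the lit arrays lay within or close to the range of the control. The log2 difference between shaded and lit was 0.78 (SE 0.18), a 1.72-fold difference, with a limma adjusted p of 0.39.

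HAT2 is a homeodomain-leucine zipper gene that auxin induces in Arabidopsis seedlings. Its signals were 941.4, 1853.3 and 1341.8 in the shaded flank and 828.9, 727.1 and 660.8 in the lit flank, against 608.6, 663.8 and 972.1 in the control. The groups shaded and lit did not overlap, although the lowest shaded array was below the highest control array. The log2 difference was 0.85 (SE 0.28, 95% interval 0.26 to 1.45), a 1.80-fold difference, with a limma adjusted p of 0.74.

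The other tested auxin genes were GH3.9, the auxin synthesis genes YUC2 and YUC4, which encode flavin monooxygenases, and WAG2, a kinase that acts on auxin efflux carriers. Their log2 differences were -0.03 (95% interval -1.04 to 0.98), 0.05 (-0.44 to 0.55), 0.11 (-0.40 to 0.61) and -0.17 (-0.64 to 0.30). The signals of the flanks overlapped for each of the 4, and the interval of GH3.9 is wide enough to hold a doubling or nearly so in either direction. All 7 Aux/IAA genes with a named probe set and the only SAUR gene were too dim to be tested. Without the filter, the Aux/IAA log2 differences were -0.95 (IAA18), 0.12 (IAA20), 1.16 (IAA29), -0.78 (IAA30), 0.47 (IAA31), -1.61 (IAA33) and -0.63 (IAA34). The SAUR gene, AT2G18010, was at -0.08, and none of these had an unadjusted limma p under 0.05. Of the dim GH3 genes, GH3.1 had signals of 252.0, 559.9 and 200.7 in the shaded flank against 145.4, 65.7 and 64.6 in the lit flank. These did not overlap, and the fit without the filter gave a log2 difference of 1.84 with an unadjusted p of 0.022. The other dim GH3 genes, GH3.17 and GH3.3, were at 0.32 and 0.28 (unadjusted p of 0.72 for each). Of the 43 dim genes over all lists, 3 had an unadjusted limma p under 0.05. GH3.1 and the calmodulin-like gene CML37 (1.66) were higher and the glutathione transferase gene GSTU15 (-2.37) lower in the shaded flank. Over all probe sets that share was 4.63% to 6.59% across the alternatives, no filter among them, so nothing is read from the 3. None of the 8 genes of the phototropin pathway list and none of the 13 auxin receptors and response factors had a named probe set.

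**Figure D2:**
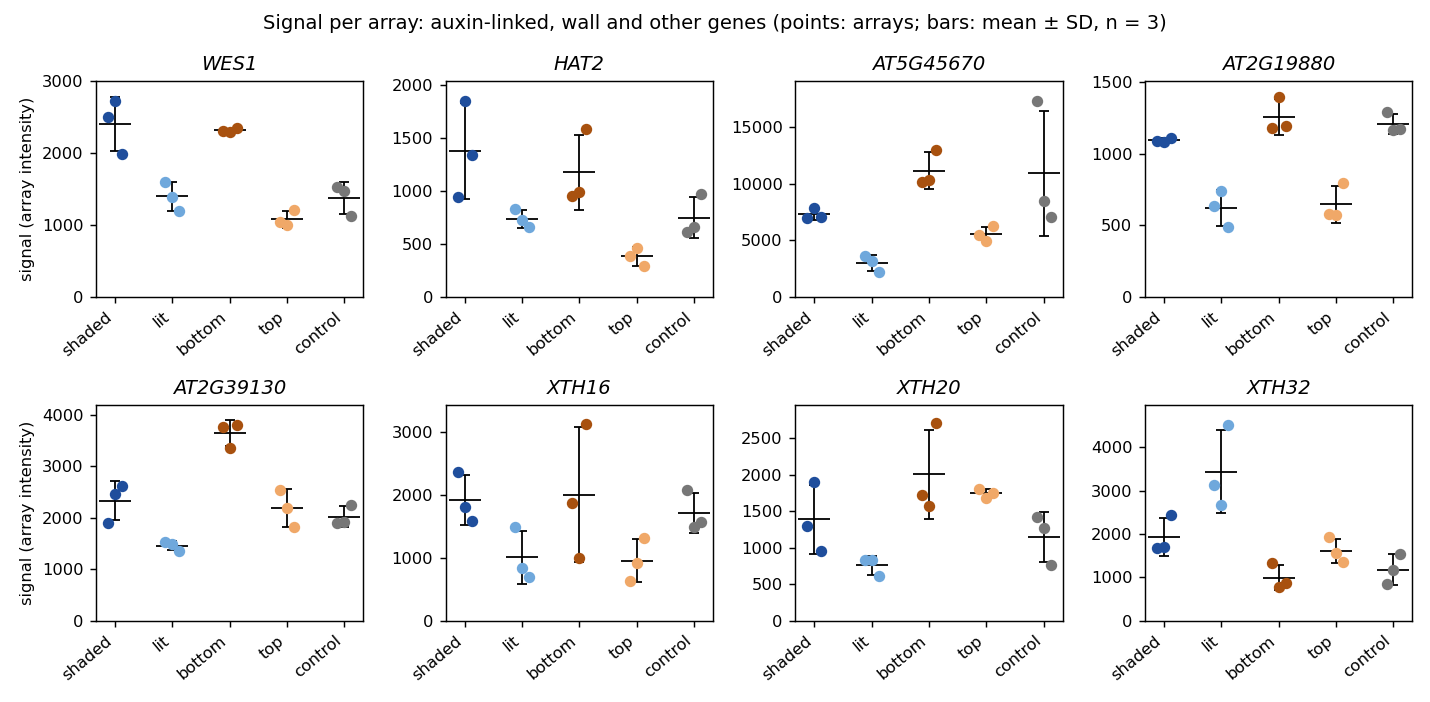
Signal (array intensity, vertical axis from 0) of 8 genes in the shaded, lit, bottom, top and control groups, with points for arrays and bars for the mean ± SD (n = 3). For WES1, HAT2, AT5G45670, AT2G19880 and AT2G39130 every shaded point is above every lit point, and for XTH32 every shaded point is below.

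The 12 named genes of smallest p with higher signal in the shaded flank had log2 differences of 0.67 to 1.74 and limma adjusted p values of 0.27 to 0.61. AT5G45670 had signals of 6968.7, 7878.6 and 7040.2 in the shaded flank against 3613.3, 3158.9 and 2229.7 in the lit flank. Its log2 difference was 1.31 (SE 0.26), or 2.48-fold, with an adjusted p of 0.27. The 2 groups were far apart, with the lowest shaded signal well above the highest lit one.

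AT2G19880 had shaded signals close to each other, 1089.5, 1078.6 and 1107.9, against 635.5, 740.6 and 484.9 in the lit flank (log2 difference 0.84, SE 0.20). AT2G39130 had signals of 1901.6, 2462.4 and 2623.7 in the shaded flank against 1524.0, 1486.4 and 1357.8 in the lit flank (0.67, SE 0.16). For AT5G43310 the shaded signals were 1312.7, 1670.0 and 1837.8 and the lit signals 1094.9, 782.4 and 690.8 (0.92, SE 0.23). In these 3 genes, too, the flanks did not overlap.

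AT3G51410 had signals of 2186.4, 1970.4 and 1936.2 in the shaded flank against 1319.5, 1178.3 and 1312.4 in the lit flank, a log2 difference of 0.68 (SE 0.14) with an adjusted p of 0.27. AT2G28320 was dimmer and more spread, with 523.1, 408.5 and 270.1 against 180.3, 114.8 and 137.8 (1.45, SE 0.35). Its mean log2 signal over all arrays, 8.39, was near the filter's 8.28. It passed the filter through its brighter groups, so the size of its difference rests on dim lit signals. Of the remaining genes, AT2G34890, AT5G21070, AT3G04830 and AT2G44670 had log2 differences of 0.96, 0.73, 0.73 and 0.68.

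ENGase85A encodes an endo-beta-N-acetylglucosaminidase, which in Arabidopsis trims N-glycans in the cytosol. It had the largest of the 12 differences, 1.74 (SE 0.47, limma adjusted p 0.59), and its lit group was uneven. The shaded signals were 788.2, 545.0 and 568.2, and the lit signals 93.5, 135.9 and 513.0, so that lit replicate 3 reached nearly the lowest shaded array. Without lit replicate 3 the log2 difference was 2.47 with a limma adjusted p of 0.0155, and without replicate 1 of both flanks it was 1.08. Over its 15 alternatives the adjusted p ran from 0.0155 to 0.98.

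By size among the probe sets whose flanks did not overlap, the largest named differences towards the shaded flank were those of AT1G18540 (1.96, SE 0.99), AT2G44660 (1.91, SE 0.63), AT1G36060 (1.88, SE 0.55), ENGase85A and AT1G11125 (1.5, SE 0.55). The mean log2 signals of these 5 over all arrays were 8.30 to 8.71, near the filter's 8.28. They passed it through their brighter groups, and their mean lit signals were only 187.7 to 247.5. The lit arrays of AT1G18540 spread widely, at 421.2, 225.2 and 62.1, and its 95% interval, -0.13 to 4.05, included 0. Without lit replicate 3 the difference of AT1G18540 was 1.19. Among unnamed probe sets, 264517_at had signals of 541.8, 453.8 and 570.2 in the shaded flank against 96.8, 98.2 and 97.6 in the lit flank. The log2 difference was 2.41, the highest of all tested probe sets, with a limma adjusted p of 0.272. Its mean log2 signal over all arrays, 8.34, was also near the filter. The unnamed probe set 254001_at, of smaller p, had signals of 1306.4, 984.8 and 2201.2 against 234.5, 194.5 and 671.6, a difference of 2.18 with the same adjusted p. It passed the adjusted threshold without lit replicate 3 (2.73, adjusted p 0.0015) and with the replicate number as a block (adjusted p 0.0028), although the numbers are not known to pair the arrays.

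The 12 named genes of smallest p with lower signal in the shaded flank had log2 differences of -2.37 to -0.64 and limma adjusted p values of 0.39 to 0.69. AFR encodes an F-box protein with Kelch repeats that takes part in phytochrome A signalling in Arabidopsis. Its signals were 550.7, 261.7 and 439.8 in the shaded flank against 933.8, 990.2 and 940.2 in the lit flank. The lit arrays lay close together and above all shaded arrays, and the log2 difference was -1.26 (SE 0.30, adjusted p 0.45). The control was too spread, at 436.4, 602.0 and 1142.3, to place either flank, since it reached from within the shaded range to above the lit range.

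bHLH115, a basic helix-loop-helix transcription factor of the iron response in Arabidopsis, had signals of 1108.2, 1222.2 and 1422.3 in the shaded flank against 2272.0, 2249.0 and 2844.2 in the lit flank. The log2 difference was -0.97 (SE 0.25, adjusted p 0.52). The control arrays, at 1265.5, 1737.0 and 1434.7, overlapped the shaded arrays and lay below all lit arrays.

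JAG encodes the zinc finger protein JAGGED, which shapes lateral organs in Arabidopsis. Its signals were 130.1, 74.8 and 276.3 in the shaded flank against 752.3, 462.5 and 308.6 in the lit flank, a log2 difference of -1.77 (SE 0.51, adjusted p 0.61). ARLA1A, a small GTPase of the ARF-like family, had 98.3, 419.5 and 347.0 against 616.5, 718.9 and 520.8 (-1.34, SE 0.40, adjusted p 0.66). In both genes the groups did not overlap, but the shaded arrays spread over more than 2-fold. Without shaded replicate 1 the difference of ARLA1A was -0.69.

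The most negative difference of all tested probe sets was that of AT3G42530, with signals of 58.4, 226.0 and 56.5 in the shaded flank against 667.9, 296.8 and 516.1 in the lit flank (-2.37, SE 0.51, adjusted p 0.39). AT5G13950 had 147.5, 236.1 and 146.5 against 463.6, 411.6 and 558.9 (-1.46, SE 0.34), and AT5G44720 had 107.4, 203.2 and 290.5 against 705.5, 533.8 and 767.3 (-1.84, SE 0.48). Both were without overlap between the flanks. The mean log2 signals of AT3G42530, AT5G13950, AT5G44720 and JAG over all arrays were 8.32, 8.41, 8.40 and 8.281, just above the filter's 8.279. They passed it through their brighter groups, so the sizes of these differences rest on dim shaded signals. The log2 differences of AT1G10580, AT5G59140, AT2G27650, AT5G61660 and AT2G04845 were -1.09, -1.65, -0.84, -1.28 and -0.64. That of AT5G59140 rested on shaded replicate 1, at 150.3 beside 616.7 and 869.3, and was -0.89 without it. AT5G66670, named by size only (-1.73, SE 0.77), rested on shaded replicate 1, which stood at 24.9 beside 496.7 and 412.5 in the other shaded arrays, and was -0.33 without it. The unnamed probe sets of smallest p in this direction were 262809_at and 253534_at, the latter at -1.04.

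**Figure D3:**
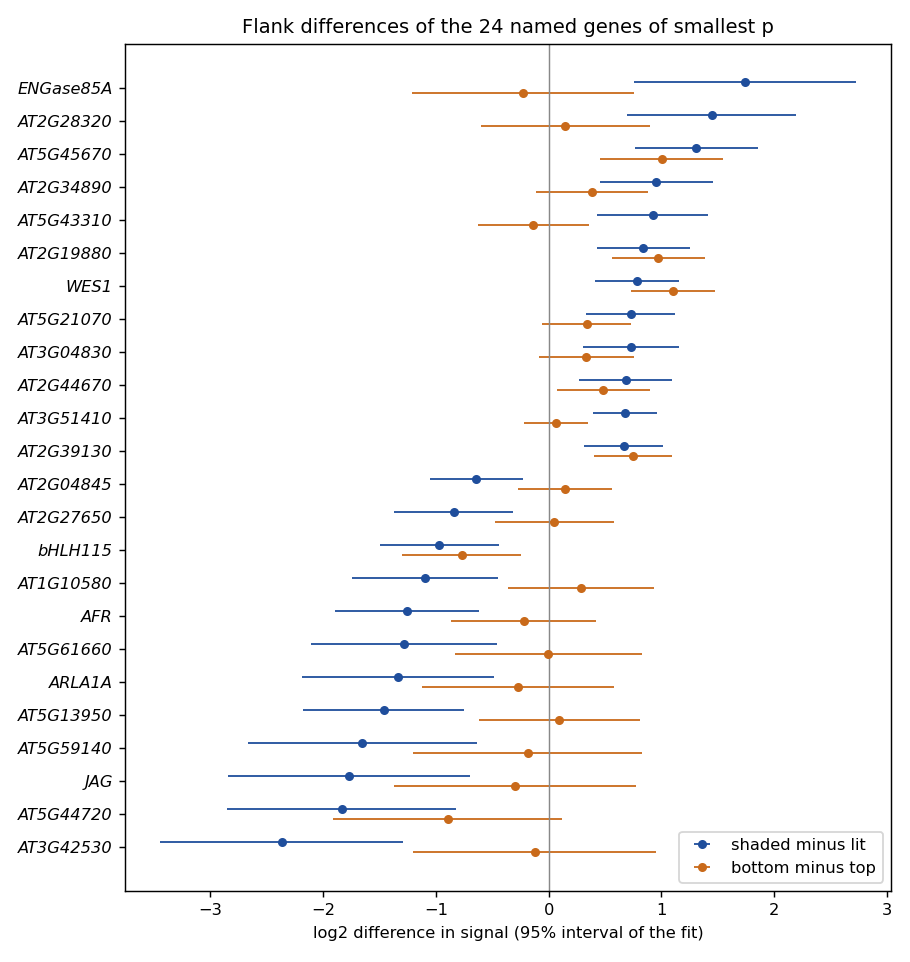
Log2 difference in signal (horizontal axis, with the 95% interval of the fit) for the 24 named genes of smallest p, for shaded minus lit (blue) and bottom minus top (orange). The blue points run from -2.37 for AT3G42530 to 1.74 for ENGase85A, and the orange points of the 12 genes lower in the shaded flank lie mostly near 0.

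Both flanks were set beside the unstimulated control to show on which side of it each lay. The 2 comparisons share the 3 control arrays and are therefore given side by side only. Of the 12 genes higher in the shaded flank, 9 had all lit arrays below all control arrays, where the share over all tested probe sets was 9.08%, and 1, WES1, had all shaded arrays above all control arrays (6.24% over all). These genes were chosen for a difference that includes the lit arrays, so nothing is read from the 9. WES1 was 0.81 log2 units from the control in the shaded flank and 0.02 in the lit flank, and HAT2 was 0.86 and 0.01. AT5G45670 had the opposite placement, with -0.47 in the shaded flank, against -1.78 in the lit flank.

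Against the control, 41 tested probe sets in the lit flank (0.361%) and 1 in the shaded flank (0.00879%) passed the adjusted threshold in limma. Of the 24 named genes of smallest p, 4 passed in the lit flank, AT5G45670, AT3G51410, AT2G19880 and AT2G28320, which fell by 1.78, 0.83, 0.98 and 1.78 on the log2 scale (limma adjusted p = 0.0084, 0.017, 0.042 and 0.042). None of the 24 passed in the shaded flank. The 24 were chosen for a difference that includes the lit arrays, so nothing is read from the 4. AT2G28320 was also dim in the lit flank, with a mean signal of 144.3 there. The call of AT5G45670 held in all 17 alternatives, although its control signals were spread, at 17294.8, 8494.0 and 7064.6. The other 3 lost theirs in 5 of 17, 10 of 17 and 7 of 16 alternatives, and all 3 lost it without lit replicate 3, control replicate 1 or control replicate 2 (adjusted p up to 0.17). Control replicate 1 stood apart in the mean 3' minus 5' log2 signal of the actin, GAPDH and ubiquitin control probe sets. It was at 0.40, and all other arrays were at -0.50 to -0.04. Its part in these calls was not tested beyond leaving the array out. That a gene passed in the lit flank only does not show that the flanks differ; the shaded minus lit values above are the measure of that.

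Of the 12 genes lower in the shaded flank, 6 had all lit arrays above all control arrays (7.92% over all). All shaded arrays lay below all control arrays for 5 (7.04%). These genes, too, were chosen for a difference between the same shaded and lit arrays, so nothing is read from the 6 and the 5. AT5G13950 was in both counts, with -0.99 in the shaded flank against 0.47 in the lit flank. AT3G42530 was -2.16 from the control in the shaded flank against 0.21 in the lit flank, whereas bHLH115 was -0.24 and 0.73.

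**Figure D4:**
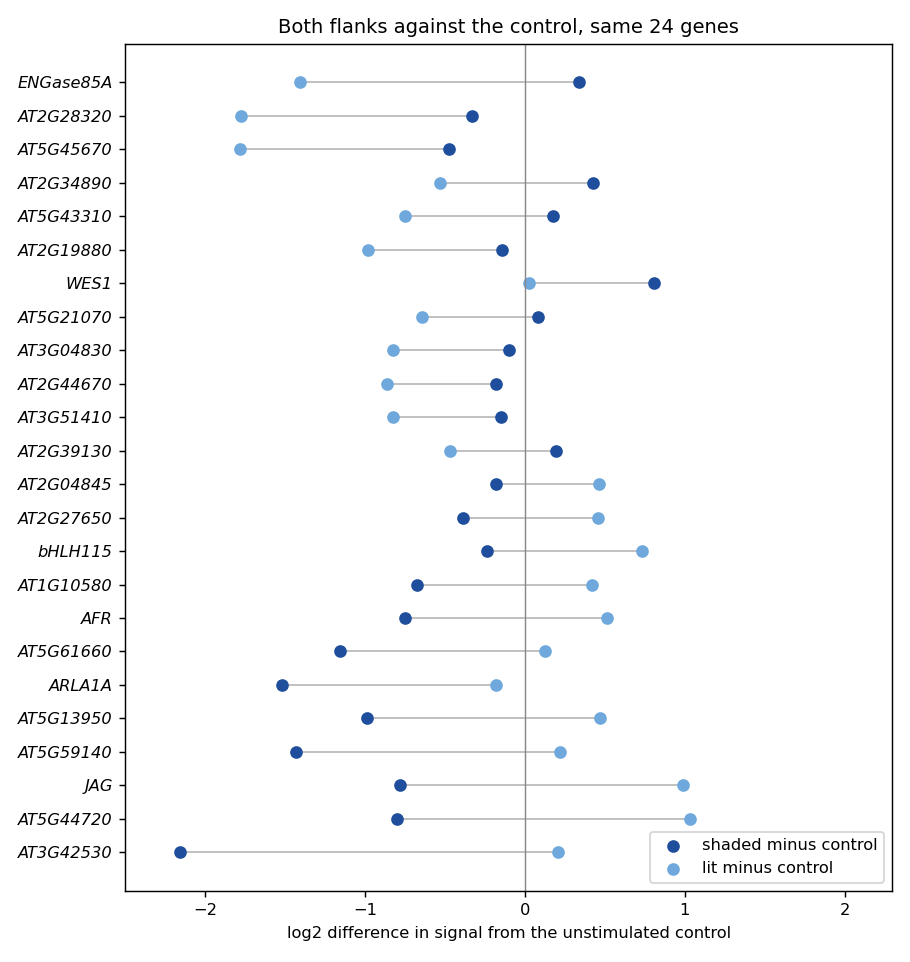
Log2 difference in signal from the unstimulated control (horizontal axis) for the shaded (dark) and the lit flank (pale) of the same 24 genes, joined by a line per gene. For AT5G45670 the lit flank is at -1.78 and the shaded at -0.47, and for WES1 the lit flank is at 0.02 and the shaded at 0.81.

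Of the wall genes, the XTH list had the highest median difference of the lists with at least 3 tested genes, 0.39 on the log2 scale over 6 tested genes, against a median of 2.5e-05 over all 11371 probe sets. XTH enzymes cut and rejoin the xyloglucan that ties cellulose fibrils together. Of the 6, 4 were higher and 2 lower in the shaded flank, none passed the adjusted threshold, and 3 more were too dim. The flanks did not overlap for 2 genes above and 1 below, where 10.5% of all tested probe sets had no overlap. With 6 genes the median was also sensitive to single arrays, at 0.67 without shaded replicate 3.

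XTH16 had signals of 2360.4, 1801.2 and 1589.0 in the shaded flank against 1487.3, 828.0 and 700.2 in the lit flank, a log2 difference of 0.99 (SE 0.36, limma adjusted p 0.82). XTH20 had 1296.8, 1902.0 and 959.2 against 828.0, 828.3 and 610.7 (0.83, SE 0.28, adjusted p 0.74). For both, all shaded arrays were above all lit arrays. XTH19, at 0.60 (SE 0.39), overlapped and was at 0.36 without lit replicate 2 and 0.39 without shaded replicate 1.

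XTH32 went the other way. Its signals were 1665.7, 1694.0 and 2446.1 in the shaded flank, 3123.5, 2678.0 and 4527.8 in the lit flank and 838.7, 1159.6 and 1536.6 in the control. All lit arrays lay above all shaded arrays, and these above all control arrays. The shaded minus lit difference was -0.82 (SE 0.26, limma adjusted p 0.73). Against the control XTH32 rose by 1.55 in the lit flank (adjusted p 0.019), a call lost in 4 of 17 alternatives, those without the intensity trend, lit replicate 3, control replicate 1 or control replicate 2. The shaded flank stood at 0.74 (adjusted p 0.50).

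Expansins loosen the wall at low pH without cutting its polymers. Of 11 tested, 7 were higher and 4 lower in the shaded flank, with a median of 0.16 and a range of -0.53 to 0.53, and 7 more were too dim. Without shaded replicate 3 the median was 0.04. EXPA8 had shaded signals of 4183.7, 3986.3 and 4074.7 and lit signals of 3647.0, 3088.9 and 2989.7, so the shaded arrays were all above the lit arrays. The log2 difference was 0.34 (SE 0.16, limma adjusted p 0.93). In all, 2 of the 11 had every shaded array above every lit array, beside 5.52% of all tested probe sets. EXPB3 and EXPA9 were lower, at -0.53 (SE 0.27) and -0.31 (SE 0.22), and EXLA2 was at 0.30 (SE 0.23), each with overlap. Leaving out single arrays put EXPB3 between -0.82 (without shaded replicate 3) and -0.25 (without shaded replicate 2), with -0.33 without lit replicate 3.

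The cellulose synthase and cellulose synthase-like genes showed no common direction, with 3 of 6 higher and a median of 0.00. CSLC04, which in Arabidopsis makes the glucan backbone of xyloglucan, had nearly equal shaded signals of 14963.4, 14938.5 and 14943.8 and lit signals of 14633.9, 10031.8 and 9703.4. The arrays did not overlap, but lit replicate 1 was close to the shaded arrays, and the difference was 0.41 (SE 0.20, limma adjusted p 0.93). CSLD2 had the largest difference of the list, -1.15 (SE 0.44, adjusted p 0.85), with overlapping flanks, and was at -0.56 without replicate 1 of both flanks. Of 2 peroxidases, PRXR1 had 1070.6, 746.5 and 812.4 in the shaded flank against 1921.1, 1202.1 and 1764.1 in the lit flank (-0.88, SE 0.27, adjusted p 0.70), without overlap, and PRX52 was at 0.34 (SE 0.39). The pectin methylesterase PME61 was at -0.58 (SE 0.35), -0.25 without shaded replicate 3, -0.26 without lit replicate 2, -0.89 without lit replicate 1 and -1.02 without replicate 1 of both flanks.

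The tubulins, whose microtubules guide cellulose deposition, had a median difference of 0.26 over 7 tested genes, 5 of them higher in the shaded flank, with a range of -0.10 to 0.59. TUB1 had the largest difference, with 1850.9, 2430.3 and 1424.1 in the shaded flank against 1722.2, 1220.3 and 901.9 in the lit flank (0.59, SE 0.26, limma adjusted p 0.93), and its flanks overlapped. Without lit replicate 3 it was at 0.36. TUB7 was the tubulin without overlap, with 5488.7, 5074.7 and 7220.0 against 4795.0, 4443.4 and 4865.2 (0.32, SE 0.17, adjusted p 0.95). The only tested actin, ACT11, had 1314.7, 1644.3 and 1987.6 against 1030.5, 1288.7 and 795.4, also without overlap (0.67, SE 0.27, adjusted p 0.89).

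**Figure D5:**
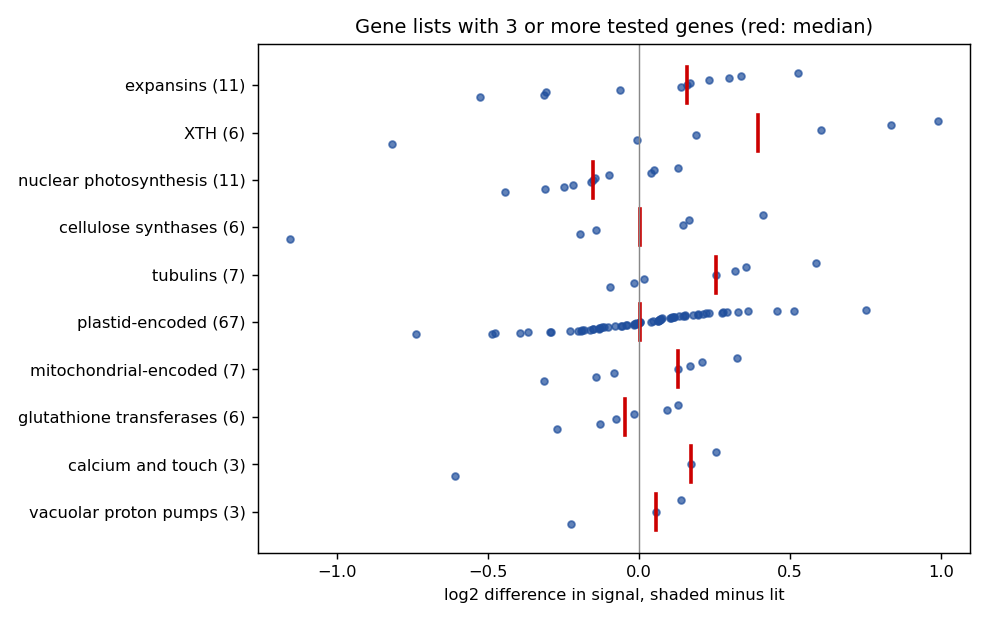
Log2 difference in signal, shaded minus lit (horizontal axis), of each tested gene (points) in the 10 lists with 3 or more tested genes (rows, number tested in brackets), with the list median in red. The XTH genes run from -0.82 to 0.99 with a median of 0.39, and the 67 plastid-encoded genes centre on 0.00.

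Of the photosynthesis genes encoded in the nucleus, 8 of 11 tested were lower in the shaded flank, with a median of -0.15 (range -0.44 to 0.13). None of the 11 had flanks without overlap, beside 10.5% of all tested probe sets, and with so few genes nothing is read from that. RCA, the activase of Rubisco, had shaded signals of 2003.7, 2295.4 and 1691.1 and lit signals of 2544.7, 2133.0 and 1943.2, a difference of -0.15 (95% interval -0.63 to 0.34). Both flanks lay above all control arrays, at 761.8, 1006.0 and 1315.2. Against the control RCA rose by 1.13 in the lit flank (limma adjusted p 0.044), a call lost in 12 of 17 alternatives, among them without any 1 of the 6 flank arrays or without control replicate 1 or 2, and stood at 0.98 in the shaded flank (adjusted p 0.24). HCF101, which assembles iron-sulfur clusters for photosystem I, was at -0.25 (SE 0.21) between the flanks, rose by 1.14 in the lit flank (adjusted p 0.034, lost in 6 of 17 alternatives, among them without lit replicate 2 or 3 or any control array) and stood at 0.89 in the shaded flank (adjusted p 0.24). PSBW and LHCB4.1, of photosystem II and its antenna, were at -0.44 (SE 0.29) and -0.31 (SE 0.43).

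The 67 tested genes encoded in the plastid were split evenly, with 36 higher and 31 lower and a median of 0.00. At the lower end the photosystem genes psbL and psaB were at -0.74 (SE 0.33) and -0.49 (SE 0.23), with overlap in both, and psbL was at -0.26 without shaded replicate 2. At the upper end the ATP synthase genes atpI and atpF were at 0.75 (SE 0.53) and 0.51 (SE 0.52). The gene atpF was the only one of the 67 whose shaded arrays, 1142.2, 1255.9 and 1325.5, were all above the lit arrays, 672.1, 1127.1 and 863.2, beside 5.52% of all tested probe sets. Of 7 mitochondrial genes 4 were higher, with a median of 0.13. One of them, nad4, a subunit of the respiratory complex I, was at -0.32 (95% interval -0.70 to 0.07) between the flanks and fell against the control in both, by 1.25 in the shaded (limma adjusted p 0.034) and by 0.93 in the lit flank (adjusted p 0.039). These calls were lost in 10 and 9 of 17 alternatives. The arrays whose removal ended them were shaded replicates 1 and 2, lit replicates 1 and 3 and control replicates 1 and 2 for the shaded flank, and all lit arrays and control replicates 1 and 2 for the lit flank. The probe set of nad4 was the only one that passed in the shaded flank.

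Of the other signalling lists, few genes were measured. Besides AFR, the light signalling list had GI, the clock gene GIGANTEA, at -0.28 (SE 0.25). RTE1, which acts on the ethylene receptor ETR1 in Arabidopsis, had 788.2, 492.4 and 564.3 in the shaded flank against 858.1, 1209.1 and 1037.4 in the lit flank, without overlap (-0.77, SE 0.34, limma adjusted p 0.93), and EIN3, the transcription factor of that pathway, was at 0.24 (SE 0.24). The flavonoid gene DFR was at 0.28 (SE 0.24).

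Of 3 calmodulin-like genes tested, CML42, a calcium sensor, had 701.5, 890.7 and 812.6 in the shaded flank against 1386.7, 1225.6 and 1063.0 in the lit flank. All shaded arrays were below all lit arrays, with a log2 difference of -0.61 (SE 0.27, adjusted p 0.93). CML43 and CML41 were at 0.25 and 0.17. The 3 vacuolar proton pump subunits were at 0.14 (VHA-A1), 0.06 (VHA-A2) and -0.23 (VHA-A3), with a list median of 0.06. The 6 tested glutathione transferases had a median of -0.05 and no gene without overlap, beside 10.5% of all tested probe sets. None of the genes of the brassinosteroid (15) and plasma membrane proton pump (4) lists had a named probe set.

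The flank difference after gravity stimulation shares no array with that after blue light and served for comparison. No probe set differed between the 2 flank differences past the adjusted threshold (0%, lowest adjusted p 1.00 for the 24 named genes), and 383 (3.37%) had an unadjusted p under it. Of the 598 probe sets with an unadjusted limma p under 0.05 after blue light, 426 (71.2%) had the same sign after gravity stimulation. That share was 56.1% over all tested probe sets. The p uses the spread of the bottom and top arrays too, so the share over all is not a like reference. Probe sets with every shaded above every lit and every bottom above every top array numbered 85, which was 13.5% of the former and 12% of the latter. Those below in both numbered 76 (13.5% and 10.6%). Over all tested probe sets, 6.25% had every bottom above every top array and 5.52% every shaded above every lit array. The shares for below were 6.3% and 4.95%. Opposite placements were found for 20 (above after blue light, below after gravity stimulation) and 14 (the reverse).

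Of the 12 genes higher in the shaded flank, 10 had the same sign after gravity stimulation, 7 of these without overlap, where 6.25% of all tested probe sets had every bottom array above every top array. The p by which both sets of 12 were chosen uses the spread of the bottom and top arrays too. The share over all probe sets is therefore not a like reference for either set. WES1 was at 1.1 and HAT2 at 1.61 after gravity stimulation, with differences between the 2 stimulations of -0.32 (unadjusted p 0.21) and -0.76 (0.075). Between the bottom and the top flank WES1 passed the adjusted threshold (limma adjusted p 0.048), and HAT2 did not (0.055). AT5G45670 was at 1.00, AT2G19880 at 0.97 and AT2G39130 at 0.75 after gravity stimulation, and XTH16 at 0.99. AT3G51410 was at 0.06 and AT5G43310 at -0.14, and their differences between the stimulations, 0.61 and 1.06, had unadjusted p values of 0.0054 each.

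Of the 12 genes lower in the shaded flank, 8 had the same sign after gravity stimulation, and 1, bHLH115 (-0.77), was without overlap there, beside 6.3% of all. For 8 of the 12 the difference between the stimulations had an unadjusted p under 0.05, and for 4 of the 12 genes higher in the shaded flank. These genes were chosen for a large blue light difference, which enters the difference of differences, so these counts are a description. AFR was at -0.22 after gravity stimulation, with signals of 1558.0 to 2248.7 over the 6 gravity arrays, above all blue light and control arrays. CML42 was at 0.96 after gravity stimulation and -0.61 after blue light, a difference of -1.57 with an unadjusted p of 0.00085. XTH32 was at -0.72 and PRXR1 at -1.27 after gravity stimulation. Neither passed the adjusted threshold after gravity stimulation (limma adjusted p 0.54 and 0.13) or after blue light.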

How the data were processed

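Per the submitters' processing notes, the authors made the deposited intensities, which are Affymetrix signals on a linear scale, with GCOS 3.0. The program's settings are stated in none of the sources used. Each array of the deposited table had a mean of 500 once the 2% of probe sets at either end were trimmed. The series describes the samples as biological triplicates, on whose spread the p values rest.

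One value at or below 0 was set to 0.4, and log2 was taken here with no offset. The 64 control probe sets and the 11375 with a mean log2 signal under the median, 8.28, were left out. A model of 5 group means was fitted to the 15 arrays with limma 3.58.1 in R 4.3.3 (eBayes with an intensity trend, 10 residual degrees of freedom), and p values were Benjamini-Hochberg adjusted over 11371 probe sets. The fit was tested on simulated data.

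Gene symbols came from the platform annotation, in which 13513 probe sets had 1 symbol, 503 several and 8730 others, besides the controls, were unlisted. The lists (330 genes by name, and gene families by symbol) gave 142 tested and 43 dim genes, and 3 symbols that lay on another chromosome were dropped. Single-symbol genes were named as the 12 of smallest p each way, the 5 largest differences each way without overlap between flanks, up to 4 members of each list by smallest p, and WES1, HAT2 and AT5G45670. Besides these, atpI, atpF, the dim Aux/IAA and SAUR genes and the dim genes GH3.1, GH3.3, GH3.17, CML37 and GSTU15 were named after their values were seen. Genes and lists were chosen with earlier results of these data known. The replicate numbers were not taken as pairs, since the labels do not say that they mark a shared pool. Same-numbered shaded and lit arrays had deviations from their group means that correlated at 0.13, 0.15 and 0.04. Those of differently numbered arrays correlated at -0.12 to -0.016. Deviations within a group sum to 0, so these values are not independent of each other.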

Additional observations from a re-analysis of the deposited data

How the results depend on the processing

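Processing alternatives were quantile normalization, centring on array medians, no filter or the brightest 30% of probe sets, no intensity trend, array weights, the 6 blue light arrays alone, log2(signal + 32), a replicate block and leaving out single arrays. Leaving out replicate 1 of both flanks or a control array was chosen after seeing the data. The count of probe sets past the adjusted threshold between the flanks was 0 in all but 4 alternatives. It was 1 with the replicate block (254001_at), which pairs arrays by a number not shown to mark a shared pool, and 0 to 3 when 1 array was left out: 2 without shaded replicate 1, 1 without lit replicate 1 and 3 without lit replicate 3. The deviations of each array from its group mean correlated best with those of the same number in the other flank, a hint from the data only. The share at an unadjusted p under 0.05 was 4.63% to 6.59%, and the count for the difference between stimulations stayed at 0. The 24 genes of smallest p were chosen in the same arrays that the alternatives reuse, so nothing is read from their signs. None of the 24 changed sign in any alternative. Genes near 0 did on leaving out 1 array, with log2 differences of -0.46 to 0.51 for GH3.9, -0.090 to 0.23 for YUC2, -0.038 to 0.41 for EIN3, -0.32 to 0.0018 for CSLC12, -0.0032 to 0.48 for TUB6, -0.025 to 0.24 for nad1, -0.24 to 0.047 for GSTU27, -0.21 to 0.43 for GSTU22, -0.38 to 0.10 for GSTL3, -0.055 to 0.42 for CML43, -0.051 to 0.41 for CML41, -0.44 to 0.064 for VHA-A3 and -0.042 to 0.20 for VHA-A2. Without replicate 1 of both flanks, YUC2 was at -0.14, PRX52 at -0.11, TUB6 at -0.049, GSTU22 at -0.0097, GSTL3 at 0.24 and CML41 at -0.15. GH3.9 was at 0.077 with array weights and VHA-A2 at -0.025 under quantile normalization. The cause was not tested.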
